A study of Mus musculus with 12 samples.

Results

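The BCL2 family decides at the mitochondrial outer membrane whether a cell under stress lives or dies, and 10 of its genes were followed here in regulatory T cells (Tregs) with and without a mutation of Gclc. The genes were chosen by name from a fixed list, with earlier results of these data known. All 10 were found among the 49671 genes of the count files. They comprise 3 pro-survival genes (Bcl2, Bcl2l1 and Mcl1) and 7 pro-death genes, of which 5 are BH3-only genes (Bcl2l11, Bid, Bad, Bbc3 and Pmaip1) and 2 are effectors (Bax and Bak1). All 10 passed the filter on low counts and were tested.

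Glutathione, the main thiol antioxidant of the cell, is made in a pathway whose limiting step is carried out by the product of Gclc. RNA of Tregs from 8-week-old C57BL/6 mice was sequenced in 4 groups of 3 libraries: Gclc mutant and wild-type (WT) Tregs isolated fresh from the animals (nTregs), and Gclc mutant and WT Tregs (iTregs) that were differentiated from naive CD4 T cells. The labels name neither the kind of Gclc allele nor any promoter or Cre that drives it, and they do not say which cells of the animal carry it. They also do not state whether the 3 libraries of a group are separate animals or cultures, so p-values measure the spread between these libraries, which may be technical.

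Pro-survival proteins hold the effectors in check, BH3-only proteins bind the pro-survival proteins or the effectors, and freed BAX and BAK make pores that release cytochrome c. In Tregs, MCL1 is known to be needed for survival of the peripheral pool, and BIM (the product of Bcl2l11), held back by MCL1 and BCL2, is known to limit the size of that pool. NOXA (Pmaip1) binds mainly MCL1 and promotes its degradation. PUMA (Bbc3) and BIM can bind every pro-survival member, while BAD binds BCL2 and BCL-XL (the product of Bcl2l1) but not MCL1.

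The upstream sequences of Bcl2l11, Bbc3 and Bax are shown because these 3 members held a match to a motif of factors known to act on the family. Of these factors, the transcripts of the FOXO factors alone are described further on. They are the 250 bases before an annotated start site, from RefSeq on GRCm38.p6, read 5′ to 3′ on the strand of the gene. Capitals mark the motif matches. For Bcl2l11 (chr2:128125788-128126037, plus strand) they mark GTAAACA, the reverse complement of the FOXO motif TGTTTAC. For Bbc3 (chr7:16310011-16310260, plus strand) they mark TGTTTAC itself, and for Bax (chr7:45466899-45467148, minus strand) a p53 decamer followed by the E-box CACGTG.
Bcl2l11: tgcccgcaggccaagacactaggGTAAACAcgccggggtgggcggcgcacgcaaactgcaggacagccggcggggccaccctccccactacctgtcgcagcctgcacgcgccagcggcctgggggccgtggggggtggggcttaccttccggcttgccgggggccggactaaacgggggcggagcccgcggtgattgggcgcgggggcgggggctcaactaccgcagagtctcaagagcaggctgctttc
Bbc3: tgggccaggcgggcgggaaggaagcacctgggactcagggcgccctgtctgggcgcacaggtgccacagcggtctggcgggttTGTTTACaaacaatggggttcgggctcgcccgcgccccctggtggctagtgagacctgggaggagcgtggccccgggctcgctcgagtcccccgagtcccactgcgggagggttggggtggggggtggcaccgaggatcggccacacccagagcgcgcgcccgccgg
Bax: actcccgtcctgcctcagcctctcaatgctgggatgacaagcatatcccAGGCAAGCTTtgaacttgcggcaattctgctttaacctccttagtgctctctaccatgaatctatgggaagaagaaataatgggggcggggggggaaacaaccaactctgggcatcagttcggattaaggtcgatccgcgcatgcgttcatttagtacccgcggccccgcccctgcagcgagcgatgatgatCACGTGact

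The FOXO match lay 227 to 221 bases before 1 of 2 start sites of Bcl2l11 and 167 to 161 bases before 1 of 3 start sites of Bbc3. In Bax the p53 decamer lay 201 to 192 bases and the E-box 9 to 4 bases before the start. A further start site of Bbc3 held an E-box 64 to 59 bases upstream. Matches were sought on both strands in 15 start sites of 9 members. Of 32851 mouse start sites read the same way, 3.17% held the FOXO motif, 6.02% the E-box and 7.13% the p53 decamer. The E2F motif (TTTCCCGC or TTTGGCGC, in 1.3% of all start sites), the GAS element (TTCNNNGAA, 7.02%) and the ATF4 composite element (TGATGNAA, 3.45%) had no match in the members' windows. A match is a string of letters and was not tested as a bound site.

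Library totals lay between 28707579 and 39886130 counts. Gclc was lower in the mutant in nTregs (log2 fold change -0.81 ± 0.07, SE, adjusted p = 7.03e-05, edgeR) and in iTregs (-1.46 ± 0.08, adjusted p = 1.64e-06). Foxp3, the defining transcription factor of Tregs, was at 135 to 217 CPM (the count relative to the TMM-scaled library total) in mutant nTregs and 559 to 610 CPM in WT nTregs. Its levels were 75.5 to 107 CPM in mutant iTregs and 287 to 300 CPM in WT iTregs. Foxp3 was thus present in every library and lower in the mutant in both kinds of Treg (-1.70 ± 0.15, adjusted p = 7.03e-05, in nTregs and -1.66 ± 0.15, adjusted p = 0.000188, in iTregs). All 8 Treg and T cell markers were above 0 in every library, and their sums were 2700 to 3330 CPM in mutant nTregs and 3660 to 3990 CPM in WT nTregs. In iTregs those sums were 2690 to 2910 CPM in the mutant and 2520 to 2740 CPM in WT. Library 1 of the mutant nTregs stood apart: its summed CD8 and NK cell markers reached 1570 CPM, against 201 and 170 CPM in the other mutant nTreg libraries and 67.2 to 78.8 CPM in WT nTregs. For iTregs the CD8 and NK sums were 59 to 89.3 CPM in the mutant and 37.9 to 56.9 CPM in WT, with Gzma and Ncr1 at 0 in every iTreg library. Library 4 of the mutant iTregs stood apart for Bcl2l1 and Bcl2, as given below. In bulk RNA, fewer cells of a type and less RNA per cell cannot be told apart.

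**Figure D1:**
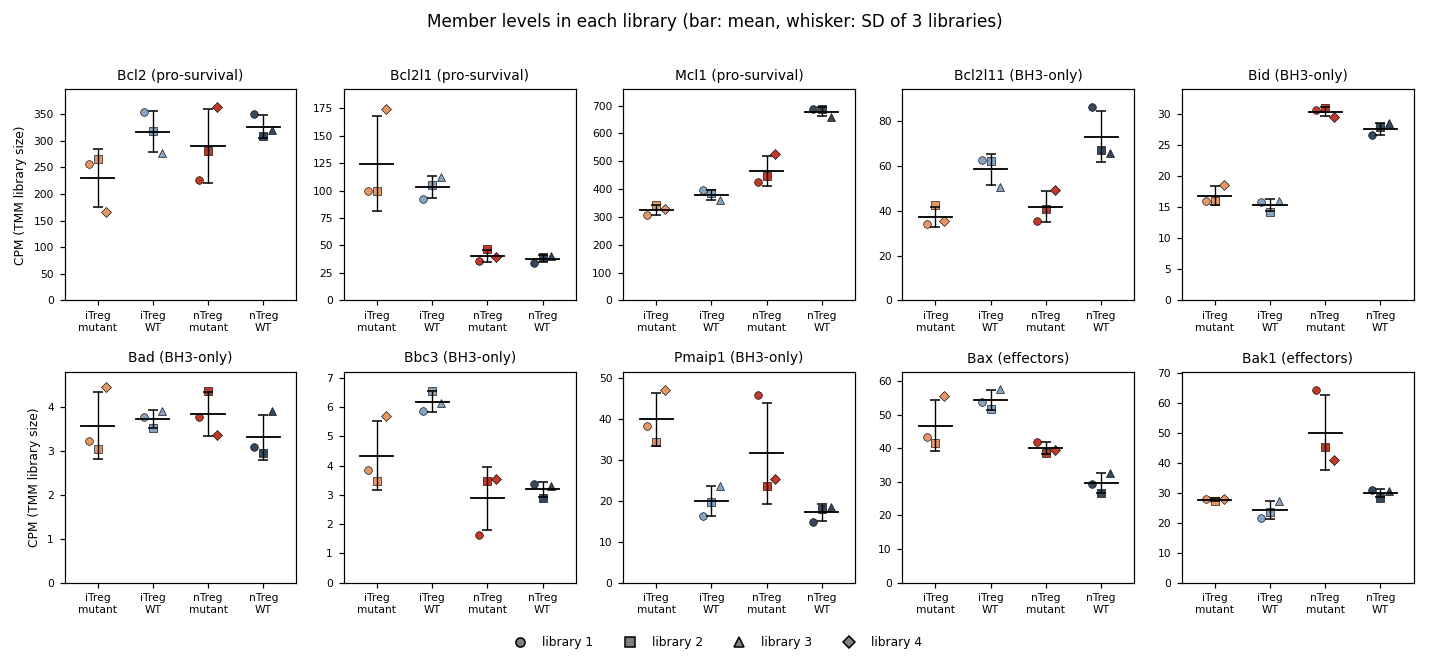
Level of each of the 10 genes in each of the 12 libraries, in CPM on the TMM-scaled library size, by group (points are libraries, bars are means, whiskers are the SD of 3 libraries). Mcl1 is at 424 to 527 CPM in mutant nTregs and 659 to 689 CPM in WT nTregs, and the mutant libraries of Bcl2l11 all lie below the WT ones.

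Per kilobase of gene model, Mcl1 was the most abundant of the 10 transcripts in every group. Its mean was 136 RPKM (CPM divided by the kilobases of gene model length) in mutant nTregs and 199 RPKM in WT nTregs, and 95.3 RPKM in mutant iTregs and 111 RPKM in WT iTregs. In WT nTregs the order after Mcl1 was Bcl2 (35.7 RPKM), Bax (18.8 RPKM), Bak1 (12.4 RPKM), and then Bcl2l11 (9.1 RPKM), Bcl2l1 (8.26 RPKM) and Bid (7.79 RPKM), whose libraries overlapped. Pmaip1 followed at 6.47 RPKM, and Bad and Bbc3, whose libraries overlapped, came last at 1.65 and 1.5 RPKM. In WT iTregs, Bcl2 (34.6 RPKM) and Bax (34.5 RPKM) overlapped in the next place, followed by Bcl2l1 at 22.5 RPKM. In mutant iTregs, Bax (29.7 RPKM), Bcl2l1 (27.1 RPKM) and Bcl2 (25.1 RPKM) overlapped, and Pmaip1 came next at 15.1 RPKM. The order was least clear in mutant nTregs, where Bcl2 (31.7 RPKM), Bax (25.5 RPKM), Bak1 (20.8 RPKM) and Pmaip1 (11.9 RPKM) each overlapped the next. Bbc3 and Bad held the last places in each of the 4 groups.

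Of the 10 genes, 5 changed with the mutation in nTregs, where 34.9% of all 17977 tested genes did: 3 rose (Pmaip1, Bak1 and Bax; background 19.3%) and 2 fell (Bcl2l11 and Mcl1; background 15.6%). In iTregs 2 of 10 changed, against 25.4% of all genes: Pmaip1 rose (background 14%) and Bcl2l11 fell (background 11.4%). Pmaip1 was thus among the 5.8% of genes that rose in both kinds of Treg, and Bcl2l11 among the 4.17% that fell in both. The members' median absolute log2 fold change was 0.33 in nTregs, where that of all tested genes was 0.29, and 0.25 in iTregs, the same as for all tested genes. As a set, with every library in, the 10 genes were therefore near the background in iTregs. Without nTreg mutant library 1, Bcl2, Mcl1 and Bbc3 were also called in iTregs, all lower in the mutant. These added calls have no share of all tested genes in the same setting beside them. Calls here and below are adjusted p-values under 0.05 from edgeR's quasi-likelihood test, adjusted over all tested genes.

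**Figure D2:**
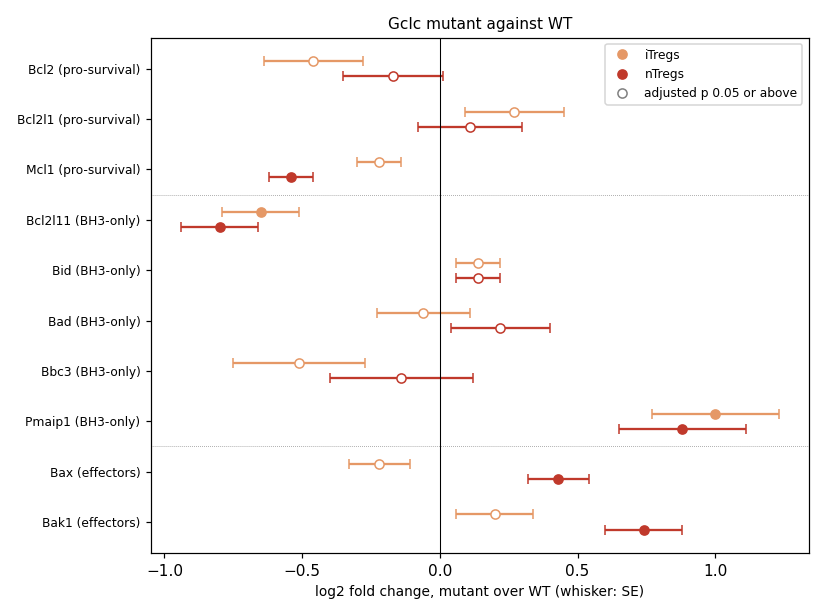
Log2 fold change of each gene, Gclc mutant over WT, in nTregs and iTregs (whiskers are SE, filled points passed the test). Pmaip1 lies at 1.0 and Bcl2l11 at -0.65 in iTregs, Pmaip1 at 0.88 and Bcl2l11 at -0.80 in nTregs, while Mcl1, Bax and Bak1 are filled in nTregs alone.

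Mcl1 (ENSMUSG00000038612; GRCm38, chromosome 3, 95658788 to 95663176, plus strand) encodes a short-lived pro-survival protein. In nTregs it was at 424, 447 and 527 CPM in the mutant and at 689, 688 and 659 CPM in WT. Every mutant library lay below every WT library, and Mcl1 fell by 0.54 ± 0.08 on the log2 scale (SE, n = 3 against 3, edgeR adjusted p = 0.000644). Mutant iTregs had 307, 343 and 327 CPM of it, and WT iTregs 396, 385 and 361 CPM. These libraries did not overlap either, but the difference of -0.22 ± 0.08 did not pass (edgeR adjusted p = 0.0617). It passed under 8 of 20 alternative settings, with adjusted p-values between 0.0111 and 0.202. The effect in iTregs minus that in nTregs was 0.32 ± 0.12 (edgeR adjusted p = 0.0868), so the 2 effects were not shown to differ.

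Bcl2 (ENSMUSG00000057329; chromosome 1, 106538178 to 106714274, minus strand), the founding pro-survival gene, was at 227, 280 and 364 CPM in mutant nTregs and at 350, 309 and 320 CPM in WT nTregs. The groups overlapped (log2 fold change -0.17 ± 0.18, edgeR adjusted p = 0.498). Its levels were 257, 266 and 167 CPM in mutant iTregs and 354, 319 and 277 CPM in WT iTregs. All 3 mutant iTreg libraries were lower, with library 4 the lowest, at a log2 fold change of -0.46 ± 0.18 that did not pass (edgeR adjusted p = 0.0799). It passed under 6 of 20 alternative settings. Without iTreg mutant library 4 it was -0.28 ± 0.16 (edgeR adjusted p = 0.242).

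Bcl2l1 (ENSMUSG00000007659; chromosome 2, 152780668 to 152831728, minus strand) encodes BCL-XL, which supports activated lymphocytes. It was at 36.2, 46.9 and 39.5 CPM in mutant nTregs and at 34.1, 39.2 and 40.3 CPM in WT nTregs. The nTreg groups overlapped (log2 fold change 0.11 ± 0.19, edgeR adjusted p = 0.675). Mutant iTregs had 99.2, 100 and 174 CPM, and WT iTregs 92, 105 and 112 CPM. The high mean of the mutant iTregs rested on library 4, and the difference of 0.27 ± 0.18 did not pass (edgeR adjusted p = 0.306); without that library it was -0.05.

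Bcl2l11 (ENSMUSG00000027381; chromosome 2, 128126038 to 128162547, plus strand), the gene of BIM, was at 35.7, 40.7 and 49.5 CPM in mutant nTregs and at 86.3, 67.4 and 65.7 CPM in WT nTregs. It fell there by 0.80 ± 0.14 on the log2 scale (SE, n = 3 against 3, edgeR adjusted p = 0.00147). The levels were 34.1, 42.6 and 35.4 CPM in mutant iTregs and 62.9, 62.2 and 50.6 CPM in WT iTregs. It fell by 0.65 ± 0.14 in iTregs (edgeR adjusted p = 0.00771). Across both kinds of Treg, all 6 mutant libraries (34.1 to 49.5 CPM) lay below all 6 WT libraries (50.6 to 86.3 CPM). The 2 effects differed by 0.15 ± 0.20 (edgeR adjusted p = 0.66). Both calls held under all 20 alternative settings.

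Pmaip1 (ENSMUSG00000024521; chromosome 18, plus strand), the gene of NOXA, was at 45.7, 23.6 and 25.4 CPM in mutant nTregs and at 14.8, 18.1 and 18.5 CPM in WT nTregs. It rose there by 0.88 ± 0.23 on the log2 scale (SE, n = 3 against 3, edgeR adjusted p = 0.0108). Library 1, the one with high CD8 and NK cell markers, was the highest, and without it the log2 fold change was 0.54 ± 0.16 (edgeR adjusted p = 0.0214). In iTregs Pmaip1 was at 38.3, 34.4 and 47 CPM in the mutant and at 16.3, 19.8 and 23.6 CPM in WT. All mutant iTreg libraries were higher, by 1.0 ± 0.23 on the log2 scale (edgeR adjusted p = 0.00855). This call was lost without iTreg WT library 1 (0.87, edgeR adjusted p = 0.0518). The 2 effects differed by 0.12 ± 0.32 (edgeR adjusted p = 0.847).

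**Figure D3:**
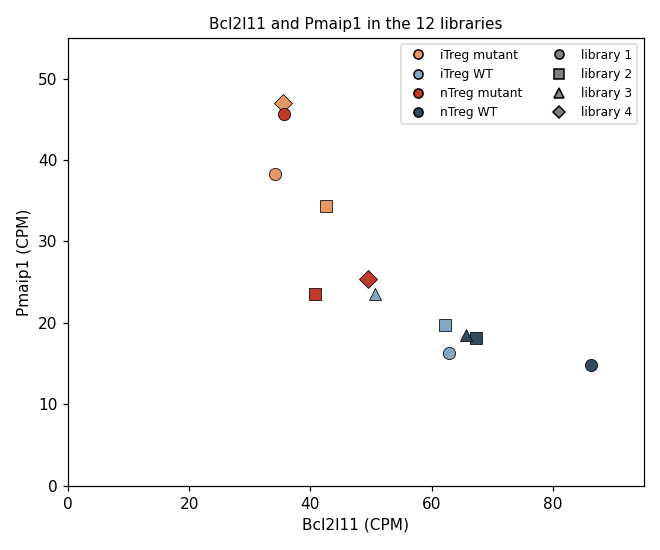
Pmaip1 against Bcl2l11 in the 12 libraries, both in CPM (each point is a library, colours are groups, shapes are library numbers). The 6 mutant libraries lie at 34.1 to 49.5 CPM of Bcl2l11 and 23.6 to 47 CPM of Pmaip1, and the 6 WT libraries at 50.6 to 86.3 CPM and 14.8 to 23.6 CPM.

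The plot of Pmaip1 against Bcl2l11 shows these 2 BH3-only genes running in opposite directions: over the 12 libraries, Pearson's r of their log2 CPM was -0.93. Pmaip1 and Bcl2 had an r of -0.85, and Bcl2l11 and Bcl2 an r of 0.76. These values describe libraries that share groups and, in part, the 2 libraries that stood apart.

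Bbc3 (ENSMUSG00000002083; chromosome 7, 16308393 to 16318205, plus strand), the gene of PUMA, was at 1.64, 3.49 and 3.53 CPM in mutant nTregs and at 3.36, 2.9 and 3.32 CPM in WT nTregs. Only library 1 of the mutant lay apart, and the log2 fold change was -0.14 ± 0.26 (edgeR adjusted p = 0.714). Mutant iTregs had 3.85, 3.48 and 5.71 CPM, and WT iTregs 5.87, 6.56 and 6.13 CPM. All 3 mutant iTreg libraries were lower, but the difference of -0.51 ± 0.24 did not pass (edgeR adjusted p = 0.144). Without library 4 of the mutant iTregs it was -0.75 ± 0.25 (edgeR adjusted p = 0.0527), and it passed under 3 of 20 alternative settings.

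Bid and Bad did not pass the test for the mutation in either kind of Treg. Bid (ENSMUSG00000004446; chromosome 6, 120891930 to 120916853, minus strand), which caspase-8 cleaves to link death receptors to mitochondria, averaged 30.4 ± 0.745 CPM in mutant nTregs and 27.6 ± 0.967 CPM in WT nTregs (SD, n = 3 each). In iTregs it averaged 16.9 ± 1.53 CPM in the mutant and 15.4 ± 0.978 CPM in WT. Its log2 fold change was 0.14 ± 0.08 in both, with edgeR adjusted p-values of 0.201 in nTregs and 0.241 in iTregs. Bad (ENSMUSG00000024959; chromosome 19, 6941861 to 6951898, plus strand), whose product growth factor signals inactivate, stayed between 2.96 and 4.46 CPM in all 12 libraries. Its log2 fold change was 0.22 ± 0.18 in nTregs (edgeR adjusted p = 0.365) and -0.06 ± 0.17 in iTregs (edgeR adjusted p = 0.835).

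The effectors changed in nTregs. Bax (ENSMUSG00000003873; chromosome 7, 45461697 to 45466898, minus strand) was at 42, 38.7 and 39.6 CPM in mutant nTregs and at 29.5, 26.8 and 32.6 CPM in WT nTregs. It rose there by 0.43 ± 0.11 on the log2 scale (edgeR adjusted p = 0.0087), with no overlap of libraries. Its levels were 43.3, 41.5 and 55.4 CPM in mutant iTregs and 53.9, 51.6 and 57.7 CPM in WT iTregs, a difference of -0.22 ± 0.11 that did not pass (edgeR adjusted p = 0.148). Without iTreg mutant library 4 it passed (-0.36 ± 0.09, edgeR adjusted p = 0.0178). Bax was the 1 member of 10 whose genotype effect differed between the kinds of Treg (iTreg effect minus nTreg effect -0.65 ± 0.15, edgeR adjusted p = 0.0168), against 13.3% of all genes, 7.18% with a lower and 6.12% with a higher effect in iTregs. Leaving out nTreg WT library 2 ended that call (-0.59, edgeR adjusted p = 0.0516). Bax shares exon bases with Gm45808 on the same strand, which had 79 to 219 counts per library where Bax had 797 to 2136. The difference between the 2 genotype effects was -0.83 ± 0.29 for Gm45808 (edgeR adjusted p = 0.0751), and its part in the Bax result was not tested.

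Bak1 (ENSMUSG00000057789; chromosome 17, 27019810 to 27029009, minus strand) was at 64.3, 45.2 and 40.8 CPM in mutant nTregs and at 30.8, 28.4 and 30.7 CPM in WT nTregs. It rose by 0.74 ± 0.14 on the log2 scale (edgeR adjusted p = 0.00219). Library 1 was again the highest, and without it the log2 fold change was 0.55 ± 0.09 (edgeR adjusted p = 0.000853). Mutant iTregs had 28, 27.1 and 28 CPM and WT iTregs 21.6, 23.5 and 27.4 CPM, and the groups overlapped (0.20 ± 0.14, edgeR adjusted p = 0.333). The iTreg effect minus the nTreg effect was -0.54 ± 0.20 and did not pass (edgeR adjusted p = 0.0895), though it passed under 4 of 19 alternative settings.

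Markers of other cells moved with the mutation in nTregs beside these calls. Of 10 CD8 and NK cell markers, 9 were higher in mutant nTregs (6 without nTreg mutant library 1) and none of the 10 was at 0 in any nTreg library. Cd8a was at 219, 19.1 and 27.2 CPM in the mutant and at 3.7, 4.38 and 6.36 CPM in WT. The 5 nTreg calls held without library 1, but the other mutant nTreg libraries also had higher sums of these markers than WT, and the part of such cells in the result was not tested. Of 9 tested myeloid markers 1 was higher (3 without nTreg mutant library 1), with sums of 58.8 to 84.5 CPM in mutant nTregs and 40.7 to 43.5 CPM in WT nTregs. Of 6 tested erythroid markers 1 was higher, with sums of 178 to 884 CPM in the mutant and 111 to 389 CPM in WT. None of 9 B cell markers was higher and 1 was lower, and of 5 tested plasma cell markers 0 were higher and 1 was lower. With every library in, 19.3% of all tested genes rose and 15.6% fell in mutant nTregs.

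The pro-survival share, here the RPKM of Bcl2, Bcl2l1 and Mcl1 as a percentage of the RPKM of all 10 genes, summarises the balance of these 10 transcripts alone. It leaves out other pro-survival genes described further on. Of these, the A1 genes rose in mutant nTregs, and Bcl2l2 and the A1 gene Bcl2a1d rose in mutant iTregs. Bcl2l2 also rose in mutant nTregs without nTreg mutant library 1 (log2 fold change 0.51, edgeR adjusted p = 0.00363) and without iTreg mutant library 4 (0.36, edgeR adjusted p = 0.0315). In nTregs the pro-survival share was 64.4%, 71.1% and 74.4% in the mutant and 80.9%, 81.7% and 79.7% in WT. The mean was lower by 10.8 percentage points, at 70% ± 5.1 in the mutant and 80.8% ± 1 in WT (SD, n = 3 each), and no libraries overlapped. With counts not divided by length the difference was -5.38 percentage points. Pro-survival transcripts summed to 177 ± 23 RPKM in the mutant and 242 ± 5.7 RPKM in WT, and pro-death transcripts to 75.3 ± 9.6 RPKM in the mutant and 57.8 ± 2.8 RPKM in WT. In iTregs the share was 68%, 70.4% and 65.8% in the mutant and 72.5%, 71.9% and 68.9% in WT. Those groups overlapped, and their means differed by -3.04 percentage points. These shares are descriptions, and no test of them was made. Mcl1 carried much of the sum: in WT nTregs its 199 RPKM stood beside 242 RPKM for the pro-survival genes together.

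**Figure D4:**
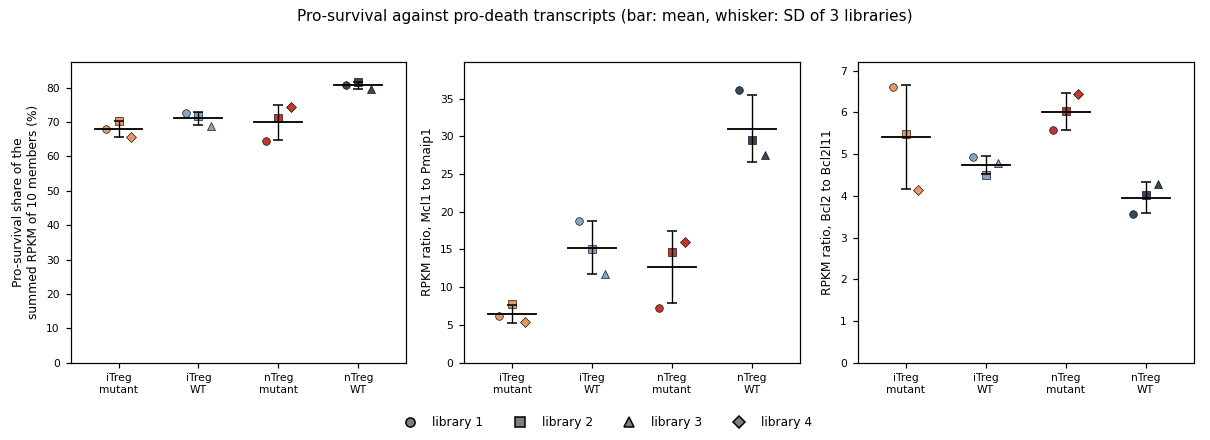
Pro-survival share of the summed RPKM of the 10 genes, and RPKM ratios of Mcl1 to Pmaip1 and of Bcl2 to Bcl2l11, by group (points are libraries, bars are means, whiskers are the SD of 3 libraries). The share in mutant nTregs (64.4% to 74.4%) lies below that in WT nTregs (79.7% to 81.7%), and the ratio of Mcl1 to Pmaip1 is lower in the mutant in both kinds of Treg.

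Known binding partners can be set against each other as RPKM ratios, which are descriptions with no test. The ratio of Mcl1 to its antagonist Pmaip1 was 7.18, 14.7 and 16 in mutant nTregs and 36.1, 29.5 and 27.5 in WT nTregs. In iTregs it was 6.2, 7.71 and 5.4 in the mutant and 18.8, 15.1 and 11.8 in WT. In both kinds of Treg the mutant libraries all lay lower. The ratio of Bcl2 to Bcl2l11 went the other way in nTregs, at 5.57, 6.04 and 6.45 in the mutant and 3.56, 4.03 and 4.28 in WT. In iTregs it was 6.62, 5.48 and 4.13 in the mutant and 4.93, 4.51 and 4.8 in WT, and the groups overlapped. Relative to Bcl2 there was thus less BIM transcript in mutant nTregs, while relative to Mcl1 there was more NOXA transcript.

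Between induced and fresh Tregs, with every library in, the 10 genes were called less often than genes at large in both genotypes. In the mutant, 4 of 10 members differed between iTregs and nTregs, where 68.2% of all tested genes did: Bcl2l1 was higher in iTregs (background 33.2%) and Mcl1, Bid and Bak1 lower (background 35%). In WT 5 of 10 differed, against 69.5% of all genes: Bcl2l1, Bax and Bbc3 were higher in iTregs (background 33.7%) and Mcl1 and Bid lower (background 35.7%). Bcl2l1, Mcl1 and Bid were called in the same direction in both genotypes. The members' median absolute log2 fold change was 0.43 in the mutant and 0.58 in WT, where all tested genes had 0.56 in the mutant and 0.60 in WT. With every library in, the members thus lay below the background by count and at or below it by median. The count depended on 1 library. Without nTreg mutant library 1, Bcl2, Bcl2l11 and Pmaip1 were also called in the mutant, and Bcl2l11 and Bak1 in WT. The share of all tested genes called without that library is not given, so these calls are not set against a background. The values that follow describe single genes. These comparisons share their libraries with the genotype comparisons above. Fresh and induced cells also differed in the markers of other cells: B cell markers summed to 2.48 to 3.7 CPM in iTregs and 214 to 539 CPM in nTregs, myeloid markers to 2.4 to 8.68 CPM in iTregs and 40.7 to 84.5 CPM in nTregs, and erythroid markers to 0 to 0.189 CPM in iTregs and 111 to 884 CPM in nTregs. Plasma cell markers summed to 98.1 to 139 CPM in iTregs and 137 to 208 CPM in nTregs, but of 5 tested 1 was higher and 3 lower in mutant iTregs (median log2 fold change -4.32), and 1 higher and 4 lower in WT iTregs (median -4.69). The part of such cells in the differences below was not tested.

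**Figure D5:**
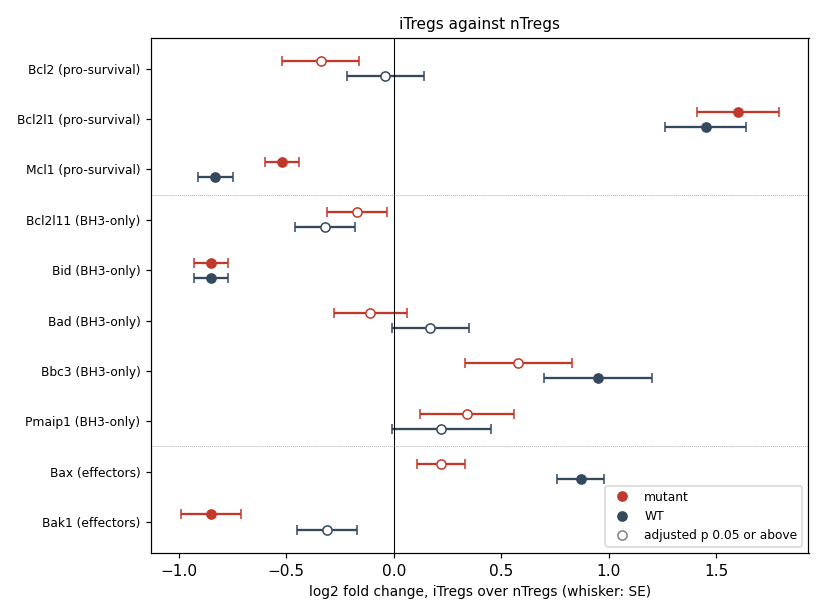
Log2 fold change of each gene, iTregs over nTregs, in Gclc mutant and WT cells (whiskers are SE, filled points passed the test). Bcl2l1 is at 1.60 in the mutant and 1.45 in WT and Bid at -0.85 in both, while Bak1 is filled in the mutant and Bax and Bbc3 in WT.

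The 3 pro-survival genes did not move as one between the kinds of Treg. Bcl2l1 was at 99.2 to 174 CPM in mutant iTregs and 36.2 to 46.9 CPM in mutant nTregs, a log2 fold change of 1.60 ± 0.19 (edgeR adjusted p = 1.03e-05). In WT it was at 92 to 112 CPM in iTregs and 34.1 to 40.3 CPM in nTregs (1.45 ± 0.19, edgeR adjusted p = 2.21e-05). Mcl1 went the other way, with a log2 fold change of -0.52 ± 0.08 in the mutant (edgeR adjusted p = 0.000121). In WT it was at 361 to 396 CPM in iTregs and 659 to 689 CPM in nTregs (-0.83 ± 0.08, edgeR adjusted p = 1.93e-06). Bcl2 did not pass in the mutant (-0.34 ± 0.18, edgeR adjusted p = 0.118) or in WT (-0.04 ± 0.18, edgeR adjusted p = 0.839), but without nTreg mutant library 1 it passed in the mutant (-0.57 ± 0.17, edgeR adjusted p = 0.00922). The RPKM ratio of Bcl2l1 to Bcl2 was 0.771, 0.752 and 2.08 in mutant iTregs, where library 4 exceeded 1, and 0.217 to 0.334 in mutant nTregs. It was 0.519 to 0.809 in WT iTregs and 0.194 to 0.253 in WT nTregs.

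Among BH3-only genes, Bid was lower in iTregs by the same amount in both genotypes, -0.85 ± 0.08 on the log2 scale (edgeR adjusted p = 1.56e-06 in the mutant and 1.44e-06 in WT). For Bbc3 the difference of 0.58 ± 0.25 in the mutant did not pass (edgeR adjusted p = 0.0568). It was 0.23 without nTreg mutant library 1 and 0.34 without iTreg mutant library 4, and it passed under 5 of 20 alternative settings. In WT it was at 5.87 to 6.56 CPM in iTregs and 2.9 to 3.36 CPM in nTregs, higher in iTregs by 0.95 ± 0.25 (edgeR adjusted p = 0.00431). Bcl2l11 and Pmaip1, the BH3-only genes that changed with the mutation, did not pass between iTregs and nTregs. Bcl2l11 differed by -0.17 ± 0.14 in the mutant (edgeR adjusted p = 0.312) and -0.32 ± 0.14 in WT (edgeR adjusted p = 0.0594), and Pmaip1 by 0.34 ± 0.22 in the mutant (edgeR adjusted p = 0.188) and 0.22 ± 0.23 in WT (edgeR adjusted p = 0.411). Without nTreg mutant library 1, both passed in the mutant (Bcl2l11 -0.35, edgeR adjusted p = 0.0428, and Pmaip1 0.63, edgeR adjusted p = 0.00305). Bcl2l11 then also passed in WT (-0.33, edgeR adjusted p = 0.0331), and did so under 9 of 20 alternative settings.

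For the effectors, Bax differed by 0.22 ± 0.11 in the mutant (edgeR adjusted p = 0.0841), while in WT it was higher in iTregs than in nTregs by 0.87 ± 0.11 (edgeR adjusted p = 1.31e-05). Bak1 was lower in mutant iTregs than in mutant nTregs by a log2 fold change of -0.85 ± 0.14 (edgeR adjusted p = 0.000164), and in WT it differed by -0.31 ± 0.14 (edgeR adjusted p = 0.069), passing under 8 of 20 alternative settings. As measured per kilobase, Bak1 stood at 0.674 to 1 times Bax in mutant nTregs and 0.615 to 0.692 times Bax in WT nTregs. In iTregs it stood at 0.331 to 0.428 times Bax in the mutant and 0.262 to 0.311 times Bax in WT. The pro-survival share was 68.1% ± 2.3 in mutant iTregs and 70% ± 5.1 in mutant nTregs (SD, n = 3 each). In WT it was 71.1% ± 1.9 in iTregs and 80.8% ± 1 in nTregs, a difference of -9.67 percentage points (-3.59 with counts not divided by length). The direction in WT turned when Mcl1 was left out of the sum, with the share then 2.29 percentage points higher in iTregs.

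Of 15 further genes of the family, 12 could be tested, and Bcl2l10, Bok and Hrk were at or near 0. In nTregs 6 of the 12 rose and 1 fell with the mutation (median log2 fold change 0.31, where all tested genes had 0.04; 19.3% of these rose and 15.6% fell). In iTregs 4 rose and 1 fell (median 0.41, where all had 0.04; 14% of these rose and 11.4% fell). Without iTreg mutant library 4, 6 rose and 2 fell in nTregs, and 3 rose and 1 fell in iTregs. The pro-survival A1 genes had the smallest adjusted p-values in nTregs, while Bcl2l14 (1.35 ± 0.30, edgeR adjusted p = 0.00457) and Bcl2l15 (1.12 ± 0.32, edgeR adjusted p = 0.0169) had larger log2 fold changes. Bcl2a1d was at 82.5, 66.9 and 71.3 CPM in the mutant and at 37.2, 38.8 and 33.9 CPM in WT. The log2 fold change of Bcl2a1d was 1.01 ± 0.12 (edgeR adjusted p = 0.000237), and those of Bcl2a1a and Bcl2a1b were 0.99 ± 0.12 and 0.80 ± 0.12. In iTregs Bcl2a1d rose by 0.49 ± 0.12 (edgeR adjusted p = 0.013). The 3 A1 genes are near-identical copies, and reads that align to several places were counted at each, so their values are uncertain as single genes. In nTregs all 3 were among the 6 that rose. The counts and medians of these 12 genes, here and below, may thus hold 1 signal 3 times and were not corrected for it. Bcl2l2, which encodes the pro-survival BCL-W, was at 21.5, 18 and 23.4 CPM in mutant iTregs and at 12.3, 12.9 and 13.1 CPM in WT iTregs (0.72 ± 0.12, edgeR adjusted p = 0.00229). Bnip3l, a mitophagy receptor, fell in nTregs by 0.61 ± 0.09 (edgeR adjusted p = 0.000665).

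Between the kinds of Treg, 3 of these 12 genes were higher and 7 lower in mutant iTregs than in mutant nTregs, where 33.2% of all tested genes were higher and 35% lower. In WT iTregs against WT nTregs 3 were higher and 4 lower, near the background of 33.7% and 35.7%, and 2 were higher and 4 lower without nTreg mutant library 1. Bmf, a BH3-only gene, was at 1.92 to 2.89 CPM in WT iTregs and 10.2 to 14.1 CPM in WT nTregs (log2 fold change -2.36 ± 0.30, edgeR adjusted p = 1.91e-05). Bcl2l14 differed by -3.62 ± 0.42 in WT (edgeR adjusted p = 7.81e-06).

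The list for the mitochondrial death pathway holds 18 genes, among them outer membrane channels and inhibitors of apoptosis as well as genes that act in death. Of these 18 genes, 8 rose and 2 fell in nTregs (median 0.38). In iTregs 6 rose and 1 fell (median 0.24), where all tested genes had a median of 0.04 in each kind of Treg. Of all tested genes 19.3% rose and 15.6% fell in nTregs, and 14% rose and 11.4% fell in iTregs. Without nTreg mutant library 1 the counts were 9 higher and 1 lower in nTregs, and 8 and 1 in iTregs. Without iTreg mutant library 4 they were 10 higher and 4 lower in nTregs, and 5 and 1 in iTregs. Vdac1, an outer membrane channel, rose by 0.49 ± 0.09 in nTregs (edgeR adjusted p = 0.00209) and by 0.50 ± 0.09 in iTregs (edgeR adjusted p = 0.00349). Casp9, the initiator caspase of the apoptosome, fell by 0.49 ± 0.09 in iTregs (edgeR adjusted p = 0.00403). Not every riser acts in death: Birc5, which encodes survivin, an inhibitor of apoptosis that is also needed for cell division, rose by 1.90 ± 0.24 in nTregs (edgeR adjusted p = 0.000296). Between the kinds of Treg, 10 genes were higher and 4 lower in iTregs in each genotype, where 33.2% of all tested genes were higher and 35% lower in the mutant, and 33.7% higher and 35.7% lower in WT. Vdac1 was higher by 1.09 ± 0.09 in the mutant and 1.08 ± 0.09 in WT.

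The death receptor pathway, which joins the mitochondrial route through BID, had calls in both directions. Of its 9 genes, 2 rose and 3 fell in mutant nTregs (19.3% and 15.6% of all tested genes did) and 1 rose in mutant iTregs (14% of all tested genes did). Median log2 fold changes were -0.05 in nTregs and 0.17 in iTregs. Without nTreg mutant library 1 the counts were 1 and 2 in nTregs, and 1 higher and 2 lower in iTregs. Without iTreg mutant library 4 they were 1 and 3 in nTregs, and 2 higher in iTregs. Tnfrsf10b, the mouse TRAIL death receptor, rose in nTregs by 0.44 ± 0.15 (edgeR adjusted p = 0.0335) and in iTregs by 0.45 ± 0.13 (edgeR adjusted p = 0.0265), a call lost without iTreg mutant library 4 (0.32, edgeR adjusted p = 0.0934). Tnfrsf1a, a TNF receptor, fell in nTregs by 0.44 ± 0.08 (edgeR adjusted p = 0.00153). Casp8, whose product cleaves BID, fell there by 0.25 ± 0.08 (edgeR adjusted p = 0.0312). In iTregs against nTregs, 4 genes were higher and 3 lower in the mutant (33.2% and 35% of all tested genes were), and 5 were higher and 4 lower in WT (33.7% and 35.7% of all).

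Cytokines that share the common gamma chain are known to raise Bcl2 and Mcl1 through JAK and STAT5. Of 11 genes of this input, 1 rose and 4 fell in mutant nTregs (median log2 fold change -0.18), where 19.3% of all tested genes rose and 15.6% fell. In mutant iTregs 1 rose and 5 fell (median -0.19), where 14% of all rose and 11.4% fell. Without nTreg mutant library 1 the iTreg counts were 1 and 7. Stat5b, one of the STAT5 genes, fell in nTregs by 0.30 ± 0.08 (edgeR adjusted p = 0.0103) and in iTregs by 0.42 ± 0.08 (edgeR adjusted p = 0.00341). Jak1, the kinase of these receptors, fell in nTregs by 0.55 ± 0.07 (edgeR adjusted p = 0.000307). The kinase gene Pim2, a STAT5 target that promotes survival, rose in nTregs by 0.55 ± 0.09 (edgeR adjusted p = 0.00122) and fell in iTregs by 0.38 ± 0.09 (edgeR adjusted p = 0.0114). In iTregs against nTregs, 3 genes were higher and 6 lower in the mutant (33.2% and 35% of all tested genes were), and 4 were higher and 7 lower in WT (33.7% and 35.7% of all). Il7r, the IL-7 receptor, was at 27.7 to 36.3 CPM in WT iTregs and 295 to 523 CPM in WT nTregs (-3.67 ± 0.23, edgeR adjusted p = 4.68e-08).

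Among 11 transcription factors known to act on the family, 2 rose and 4 fell in mutant nTregs, where 19.3% of all tested genes rose and 15.6% fell. In mutant iTregs 1 of 11 was called, lower, which is below the background of 25.4%. Without nTreg mutant library 1 these counts were 3 and 3 in nTregs, and 3 lower in iTregs. FOXO factors are known to drive Bcl2l11 and Bbc3, which hold the FOXO letters before 1 of 2 and 1 of 3 start sites. Foxo1 was at 152, 180 and 194 CPM in mutant nTregs and at 294, 299 and 321 CPM in WT nTregs, and fell by 0.80 ± 0.09 on the log2 scale (edgeR adjusted p = 0.000171). Foxo3 fell there by 0.59 ± 0.15 (edgeR adjusted p = 0.0091), and without nTreg mutant library 1 the log2 fold change was -0.35 (edgeR adjusted p = 0.00173). In iTregs Foxo1 was at 221, 223 and 196 CPM in the mutant and at 205, 218 and 219 CPM in WT (-0.01 ± 0.09, edgeR adjusted p = 0.988). Any part of FOXO factors in the levels of Bcl2l11 or Bbc3 was not tested. E2f1, a driver of the cell cycle that can also raise BH3-only genes, rose in nTregs by 1.41 ± 0.13 (edgeR adjusted p = 9.09e-05). Ddit3, which encodes the stress factor CHOP, fell in iTregs by 0.44 ± 0.13 (edgeR adjusted p = 0.0279). In iTregs against nTregs, 6 factors were higher and 2 lower in the mutant (33.2% and 35% of all tested genes were), and 5 were higher and 4 lower in WT (33.7% and 35.7% of all).

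The genes whose levels ran most like a member's over the 12 libraries were found by Pearson's r of log2 CPM, as a description. For Bcl2 they were Sesn3 (r = 0.948) and Mtmr3 (r = 0.928), and for Bcl2l1 they were Lad1 (r = 0.993) and Trip10 (r = 0.991). For Bcl2l11 they were Abcc5 (r = 0.977) and Tnfrsf22 (r = 0.962), and for Bbc3 Rab11fip3 (r = 0.958) and Miga2 (r = 0.953). Abcc5, which encodes a membrane transporter, had a log2 fold change with the mutation of -0.81 ± 0.12 in nTregs and -0.51 ± 0.12 in iTregs. Because Abcc5 was picked for its likeness to Bcl2l11 in these same libraries, its fall follows from that choice and is not separate evidence.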

How the data were processed

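Stranded mRNA libraries of 12 Treg samples were analysed from the deposited gene counts, which are whole numbers and were used as deposited. Per the file headers, the authors counted reads at Ensembl exons of GRCm38 with featureCounts, reverse-stranded, with multi-mapping reads counted at each alignment. Per the submitters' processing notes, the tools were bcl2fastq 2.18.0.12, STAR 2.5.2b and Subread 1.5.2 on mm10; the sources used here do not give trimming or read length. Of 49671 genes, 49326 matched a symbol and 345 did not.

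Counts were tested with edgeR 4.0.16 (R 4.3.3) on 17977 genes kept by filterByExpr, with TMM scaling, 1 mean per group (8 residual degrees of freedom) and the two-sided quasi-likelihood F-test, with Benjamini-Hochberg adjustment over these genes (threshold 0.05). The SE comes from the F statistic. CPM uses TMM library sizes, and RPKM divides it by the gene model length in the files. Totals were 28707579 to 39886130 counts. Within groups, a chi-square per degree of freedom of 4.2 to 47.19 between libraries showed no duplicate. The fit was tested on simulated data.

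The members and the 11 other lists were chosen with earlier results of these data known. Other lists name up to 4 genes per comparison with the smallest adjusted p, and genes alike used log2 CPM with a prior count of 2. Apart from these, Cd8a, Gzma, Ncr1, Gm45808, Bcl2l15 and Bcl2l14 in nTregs, and the repeats of a named gene in another comparison were chosen after their values were seen. Alternatives were RLE scaling, library size alone, no filter, 1 CPM in 3 libraries, DESeq2 1.42.0, only the compared groups, a replicate block, and leaving out single libraries; leaving out nTreg mutant library 1 with iTreg mutant library 4, and list counts without either, were chosen after seeing the data. Some genes open to be named are left out of the text.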

Additional observations from a re-analysis of the deposited data

Results flagged for a closer look

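The effect of the Gclc mutation on Bax differed between the kinds of Treg by a test of the difference itself: the log2 fold change in iTregs minus that in nTregs was -0.65 ± 0.15 (SE, edgeR's quasi-likelihood test, adjusted p = 0.0168). Bax was higher in 3 of 3 mutant nTreg libraries than in every WT nTreg library, while its mean was 46.7 ± 7.57 CPM in mutant iTregs and 54.4 ± 3.08 CPM in WT iTregs (SD, n = 3 each). The call held under 18 of 19 alternatives, with values between -0.80 and -0.58 and adjusted p-values between 0.000927 and 0.0516.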

How the results depend on the processing

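The 5 nTreg calls were the same 5 genes under all 20 alternatives. Counts under alternatives, here and for the lists above, are given without the share of all tested genes called in the same setting. Such counts are therefore not set against a background. In iTregs the count of 2 became 4 with library size alone or DESeq2, and 5 with the 2 compared groups alone or with nTreg mutant library 1 and iTreg mutant library 4 both left out. With single libraries left out it was 1 (without iTreg WT library 1) to 5 (without nTreg mutant library 1), and 4 without nTreg mutant library 4. The genes gained were among Bcl2, Mcl1, Bbc3 and Bax, all lower in the mutant. For the difference between the 2 genotype effects the count of 1 became 2 with library size alone, DESeq2 or both libraries left out. Single libraries left out gave 0 (without nTreg WT library 2, edgeR, where 5394 of all genes had an unadjusted p under 0.05 with every library in) to 3 (without nTreg mutant library 4), and 2 without nTreg mutant library 1. For iTregs against nTregs, single libraries left out gave 4 to 7 in the mutant, where the count was 4, and 5 to 7 in WT, where it was 5 (7 without nTreg mutant library 1 in each, and in WT also without nTreg mutant library 4). The labels do not say what the library numbers mark. Deviations of same-numbered libraries from their group means had correlations of -0.06 to 0.05, which cannot show whether the samples were paired. With the replicate block, the counts were 5 in nTregs, 3 in iTregs, 1 for the difference, and 5 in each genotype for iTregs against nTregs.

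Not divided by length, the pro-survival share differed by -5.38 points between mutant and WT nTregs and by -3.59 points between WT iTregs and nTregs. Without Mcl1, iTregs minus nTregs became 7.88 points in the mutant, where it had been -1.94 (between -4.71 and 0.283 with single libraries left out), and turned to 2.29 points in WT.

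Of 990 values of the members under alternatives, 919 kept direction and side of the threshold, 54 gained a call, 2 lost it and 15 turned. Those that turned had no call. With both libraries left out they were Bbc3 in nTregs (0.11), Bcl2l1 in iTregs (-0.06) and Bcl2l1 in the difference (-0.23). With single libraries left out, the ranges were -0.39 to 0.01 for Bcl2, -0.32 to 0.17 for Bbc3 and -0.02 to 0.22 for Bcl2l1 in nTregs, and -0.25 to 0.04 for Bad and -0.05 to 0.41 for Bcl2l1 in iTregs. For the difference they were -0.16 to 0.30 for Bcl2l1, -0.04 to 0.42 for Pmaip1 and -0.02 to 0.30 for Bcl2l11, and for WT iTregs against nTregs -0.14 to 0.05 for Bcl2. The cause was not tested.

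Library size alone moved the median log2 fold change of all genes to -0.14 for the difference and to -0.20 for mutant iTregs against nTregs, where TMM gave 0 and -0.02. At 2.96 to 4.46 CPM for Bad and 1.64 to 6.56 CPM for Bbc3, counting error limits what these genes can show.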
